A study of Homo sapiens with 24 samples.

Results

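Of 61248 features counted in each library, 10 carry genes of the DNA damage response and features that lie on the other strand of them. They were chosen by name: ATR, FANCD2, TP53BP1, SESN1, XPC and POLH are the damage response genes, and FANCD2OS, TUBGCP4, ENSG00000271730 and XPC-AS1 lie opposite FANCD2, TP53BP1, SESN1 and XPC. All 10 were found in the tables. The libraries were made from poly(A) RNA by Click-Seq, from the human embryonic stem cell line H7, an established line. Each genotype has 2 lines, and each line gave 3 biological replicates, lettered A to C, at each of 2 days, which makes 24 libraries. The groups were BRAT1 KO at day 14, control at day 14, BRAT1 KO at day 0 and control at day 0, each with n = 6. Cells at day 14 were neural progenitors after ventral differentiation, and cells at day 0 were undifferentiated stem cells. Libraries are the unit of every p-value below, while only 2 lines stand behind each genotype, so spread between lines is covered only in part.

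Cells answer damaged DNA through kinases that sense it and through repair pathways suited to the lesion. ATR is the kinase that responds to stalled replication forks and single-stranded DNA, and FANCD2 is the protein that the Fanconi anaemia pathway ubiquitylates at crosslinks. TP53BP1 binds chromatin at double-strand breaks and favours end joining, XPC recognises distorting lesions at the start of nucleotide excision repair, POLH copies past ultraviolet lesions, and SESN1 is a target gene of p53. BRAT1 was first described as a partner of BRCA1 and of the break-sensing kinase ATM, and it also binds the Integrator endonuclease INTS11.

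The strand of the counts sets what a value under each name can mean. GAPDH, an abundant glycolytic messenger, had 26.0 to 52.6 CPM (counts scaled to the total of a library) in BRAT1 KO at day 14 and 35.5 to 61.5 CPM in control at day 14. MALAT1, an abundant nuclear RNA, had a median of 76.1 CPM in BRAT1 KO and 47.0 CPM in control at that day, and TALAM1, annotated on its other strand, had 94460 CPM in BRAT1 KO and 89170 CPM in control. VIM, an intermediate filament gene, had a median of 188 CPM in BRAT1 KO and 168 CPM in control, and VIM-AS1 had 4708 CPM in BRAT1 KO and 5517 CPM in control. These examples were chosen after their values were seen. Among 1663 pairs of a coding gene and a non-coding feature opposite it, with at least 100 counts, 1152 (69.3%) had more counts under the opposite feature. For most such pairs, the counts stand under the name on the other strand. The setting of the read counter is not given in the sources used here, so a value below is the count under a name, and RNA of the named feature and RNA of the other strand were not told apart.

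The pairs share exon sequence, which is where a read can be counted for either name. FANCD2 (chromosome 3, 10026414 to 10101930, plus strand) shares 261 exonic bases with FANCD2OS. TP53BP1 (chromosome 15, 43403061 to 43510728, minus strand) shares 3732 with TUBGCP4, a subunit gene of the gamma-tubulin ring complex. SESN1 (chromosome 6, 108986437 to 109094819, minus strand) shares 363 with ENSG00000271730, an antisense feature with 1 exon. XPC (chromosome 3, 14145147 to 14178783, minus strand) shares 1140 with XPC-AS1. ATR (chromosome 3, 142449235 to 142578826, minus strand) has the processed pseudogene ENSG00000242479 opposite its end, with 2048 shared bases, and POLH (chromosome 6, 43576150 to 43615660, plus strand) shares only 4 with GTPBP2. Coordinates are those of GENCODE 29 on GRCh38.

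Stretches of 3 coding exons that are also exon of the opposite feature are shown, because each names the sequence whose reads can fall under both names. Capitals mark the shared bases on the strand of the damage response gene, and the 15 lower-case bases before them lie upstream in the same transcript. The capitals of FANCD2 cover chr3:10087134-10087240 on the plus strand, those of SESN1 chr6:108998636-108998755 on the minus strand, and those of XPC chr3:14148582-14148701 on the minus strand (GRCh38).
FANCD2: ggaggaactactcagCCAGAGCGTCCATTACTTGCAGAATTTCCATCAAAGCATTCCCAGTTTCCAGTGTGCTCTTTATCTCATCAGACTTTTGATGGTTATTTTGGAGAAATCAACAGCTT
SESN1: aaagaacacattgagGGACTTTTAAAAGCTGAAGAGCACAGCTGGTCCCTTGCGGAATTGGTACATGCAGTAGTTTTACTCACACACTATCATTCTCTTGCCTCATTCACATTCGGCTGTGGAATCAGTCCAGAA
XPC: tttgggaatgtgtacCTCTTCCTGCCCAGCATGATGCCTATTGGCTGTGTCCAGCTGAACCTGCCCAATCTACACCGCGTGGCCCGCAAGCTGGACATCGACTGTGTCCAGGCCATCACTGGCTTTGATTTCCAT

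**Figure D1:**
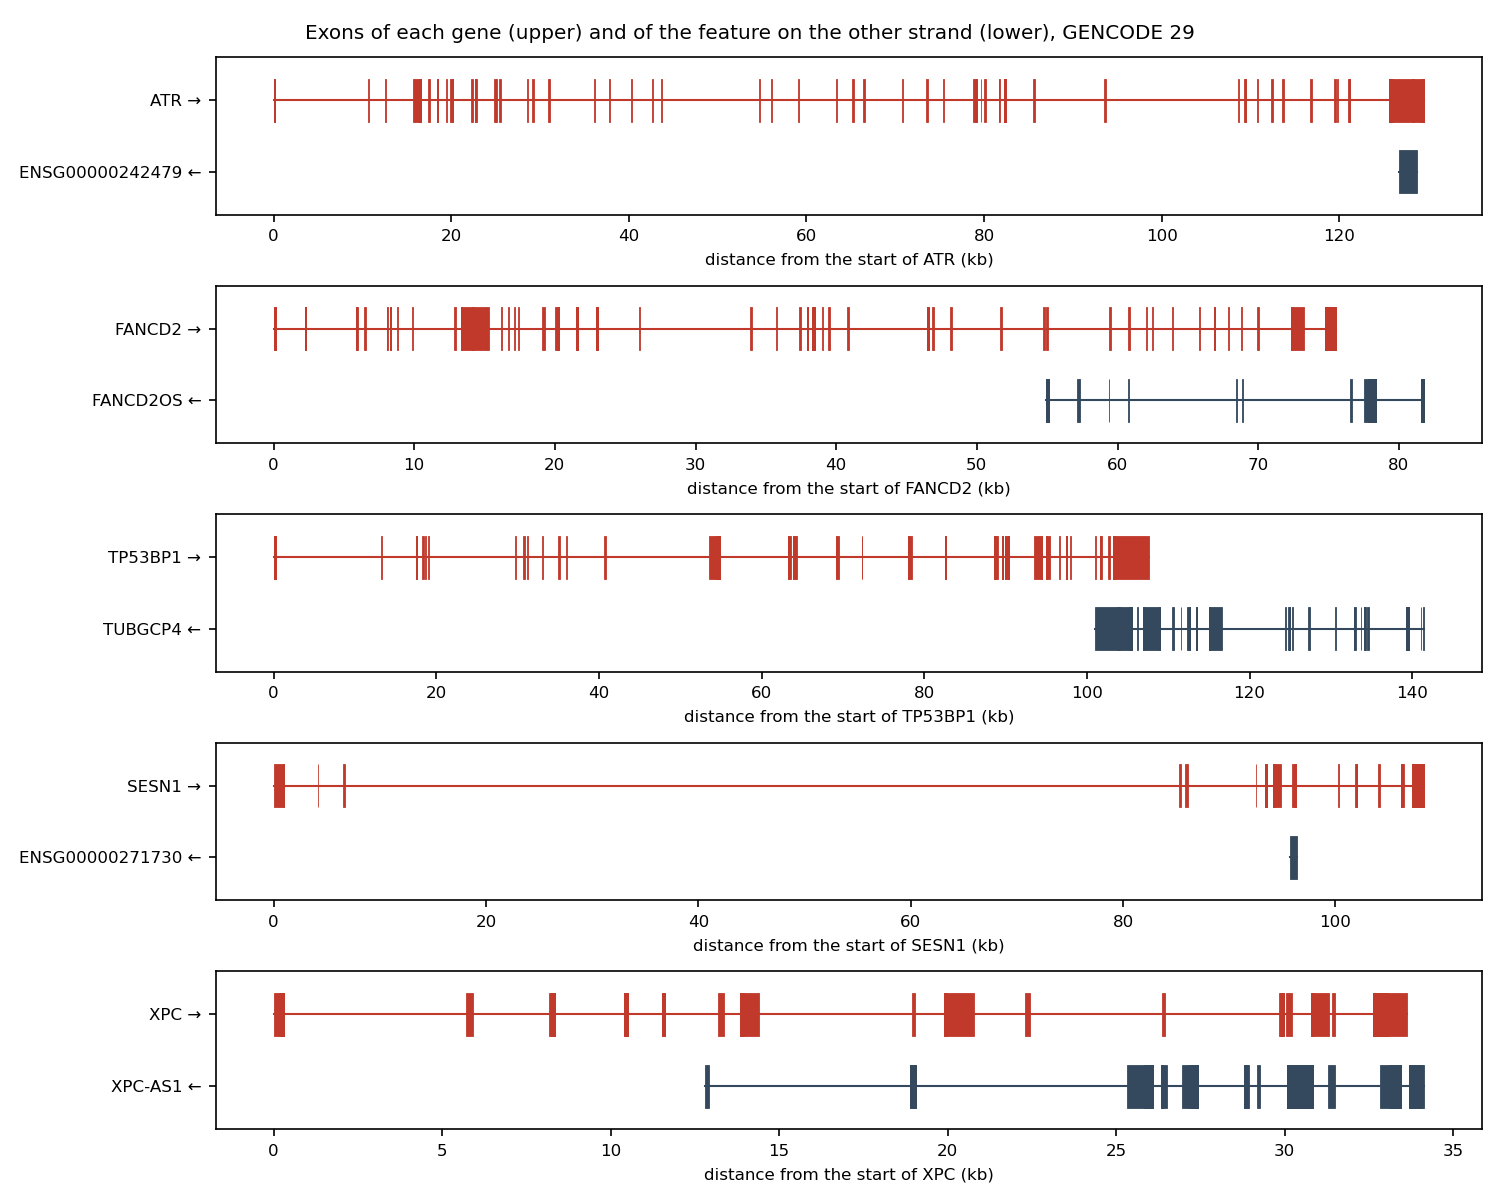
Exons (boxes) of 5 damage response genes (upper, red) and of the feature on the other strand (lower, dark), plotted by distance in kb from the start of the damage response gene. The opposite features lie over the later exons of ATR, FANCD2, TP53BP1, SESN1 and XPC.

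BRAT1 itself was read first. At day 14 it had 7.66, 44.1 and 86.8 CPM (lowest, median and highest) in BRAT1 KO and 186, 257 and 317 CPM in control, with a log2 fold change of -2.47 (SE 0.57, edgeR adjusted p = 0.0111). The groups did not overlap, and the call held in 23 of 26 alternatives. It was lost without control line 1 (edgeR adjusted p = 0.0914), without control line 2 (0.0834) and with counts summed per line (0.354). Counts under BRAT1 were 30, 21 and 63 in KO line 1 and 248, 227 and 262 in KO line 2, and line 2 stood above line 1 (log2 2.704, edgeR adjusted p = 1.09e-09). At day 0 BRAT1 had 0 to 10 counts in BRAT1 KO and 0 to 6 in control, so it gives no check of the labels there. Libraries held 2688218 to 3726227 counts in BRAT1 KO and 2228736 to 3682807 in control at day 14, and 1425141 to 2143871 in BRAT1 KO and 1407832 to 2059467 in control at day 0.

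At day 14, counts under ATR, FANCD2, TUBGCP4 and POLH were higher in BRAT1 KO than in control, and counts under FANCD2OS, ENSG00000271730 and XPC-AS1 were lower. TP53BP1, SESN1 and XPC did not pass the test. That is 7 of the 10 features tested, against 21.7% of all features tested in this comparison (2474 of 11408). The 10 were chosen with earlier results of these data known. Their share therefore cannot show that damage response genes are called more often than others. The call is an adjusted p under 0.05 in the edgeR quasi-likelihood test, and the median log2 fold change of all features was 0.07.

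**Figure D2:**
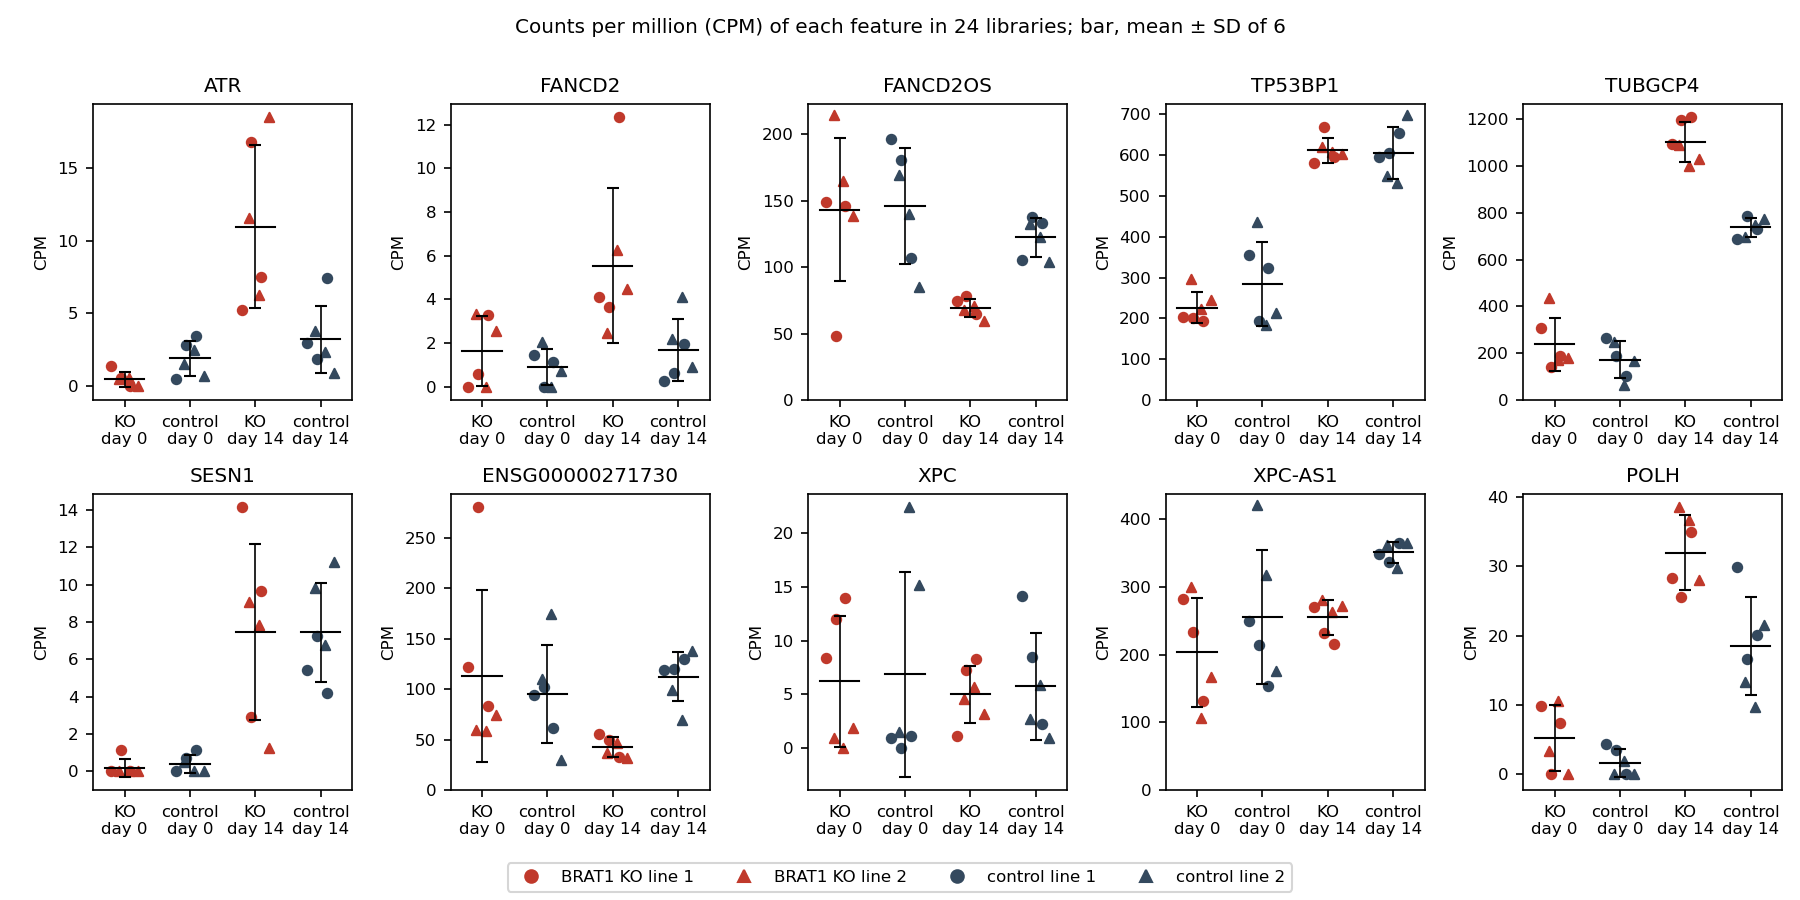
CPM of each feature in each of 24 libraries, by genotype and day, with circles for line 1, triangles for line 2 and bars for the mean ± SD of 6 libraries. FANCD2OS, ENSG00000271730 and XPC-AS1 sit lower and TUBGCP4 higher in BRAT1 KO than in every control library at day 14.

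ATR, the replication stress kinase, had 5.21, 9.53 and 18.4 CPM in BRAT1 KO and 0.897, 2.67 and 7.43 CPM in control. On the log2 scale the fold change came to 1.71 (SE 0.47, edgeR adjusted p = 0.00979). The groups overlapped: 4 of 6 BRAT1 KO libraries lay above every control library. These were low counts, 14 to 58 in BRAT1 KO and 2 to 23 in control. The call was lost without BRAT1 KO line 2 (adjusted p = 0.069) and without control line 2 (0.154), with counts summed per line (0.0513), with all 24 libraries in 1 fit (0.263) and with the strand percent over other pairs as a covariate (0.0786), with a range of 0.00346 to 0.263 over all alternatives. ENSG00000242479, opposite the end of ATR, moved the other way: it had 31.8, 48.5 and 50.5 CPM in BRAT1 KO and 56.8, 64.6 and 67.9 CPM in control, with no overlap (log2 -0.49, SE 0.17, edgeR adjusted p = 0.0369). It was taken because of its place opposite ATR.

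FANCD2, the crosslink repair protein, had 2.45, 4.27 and 12.3 CPM in BRAT1 KO and 0.272, 1.42 and 4.12 CPM in control. The groups overlapped, with a log2 fold change of 1.69 (SE 0.61, edgeR adjusted p = 0.0481). Library totals under this name were 7 to 46 counts in BRAT1 KO and 1 to 14 in control, and the call was lost in 20 of 24 alternatives (adjusted p 0.0280 to 0.417). FANCD2OS carried the larger part of the pair's counts, with 59.5, 69.2 and 78.4 CPM in BRAT1 KO and 104, 128 and 138 CPM in control. Every BRAT1 KO library lay below every control library, and the log2 difference was -0.83 (SE 0.15, edgeR adjusted p = 0.000173).

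TP53BP1, the end-joining factor, had 580, 605 and 668 CPM in BRAT1 KO and 531, 600 and 699 CPM in control. The log2 difference was 0.00 (SE 0.12, edgeR adjusted p = 0.993), and the BRAT1 KO range lay inside the control range. TUBGCP4, on its other strand, had 999, 1090 and 1207 CPM in BRAT1 KO and 687, 740 and 788 CPM in control. No library of one genotype reached the other genotype's range, and the log2 difference was 0.57 (SE 0.11, edgeR adjusted p = 0.000319).

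SESN1, the p53 target, had 1.27, 8.47 and 14.1 CPM in BRAT1 KO and 4.198, 7.004 and 11.2 CPM in control, with a log2 fold change of 0.01 (SE 0.46, edgeR adjusted p = 0.991). The control range lay inside that of BRAT1 KO. ENSG00000271730 had 32.1, 42.1 and 55.4 CPM in BRAT1 KO and 69.5, 119 and 138 CPM in control, without overlap. At -1.41 (SE 0.20, edgeR adjusted p = 7.75e-06) its log2 fold change was called in all 26 alternatives run, which makes it the steadiest of the 7 calls.

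XPC, the lesion sensor, had 1.12, 5.10 and 8.32 CPM in BRAT1 KO and 0.897, 4.31 and 14.1 CPM in control, so the groups overlapped widely (log2 -0.23, SE 0.55, edgeR adjusted p = 0.812). XPC-AS1 had 216, 267 and 281 CPM in BRAT1 KO and 329, 356 and 365 CPM in control. No BRAT1 KO library reached the control range, and the log2 difference was -0.47 (SE 0.12, edgeR adjusted p = 0.00608). LSM3, a splicing factor gene that also overlaps XPC, by 318 bases, had a log2 fold change of 0.25 (SE 0.69, edgeR adjusted p = 0.833).

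POLH, the translesion polymerase, had 25.5, 31.6 and 38.5 CPM in BRAT1 KO and 9.72, 18.4 and 29.9 CPM in control. The groups overlapped at their edges, and the log2 difference was 0.76 (SE 0.26, edgeR adjusted p = 0.0339). The call was lost in 15 of 26 alternatives (adjusted p 0.0138 to 0.875). POLH-AS1, whose exons do not overlap those of POLH, had 5.58, 8.80 and 15.9 CPM in BRAT1 KO and 12.3, 16.8 and 25.3 CPM in control (log2 -0.87, SE 0.31, edgeR adjusted p = 0.0429).

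**Figure D3:**
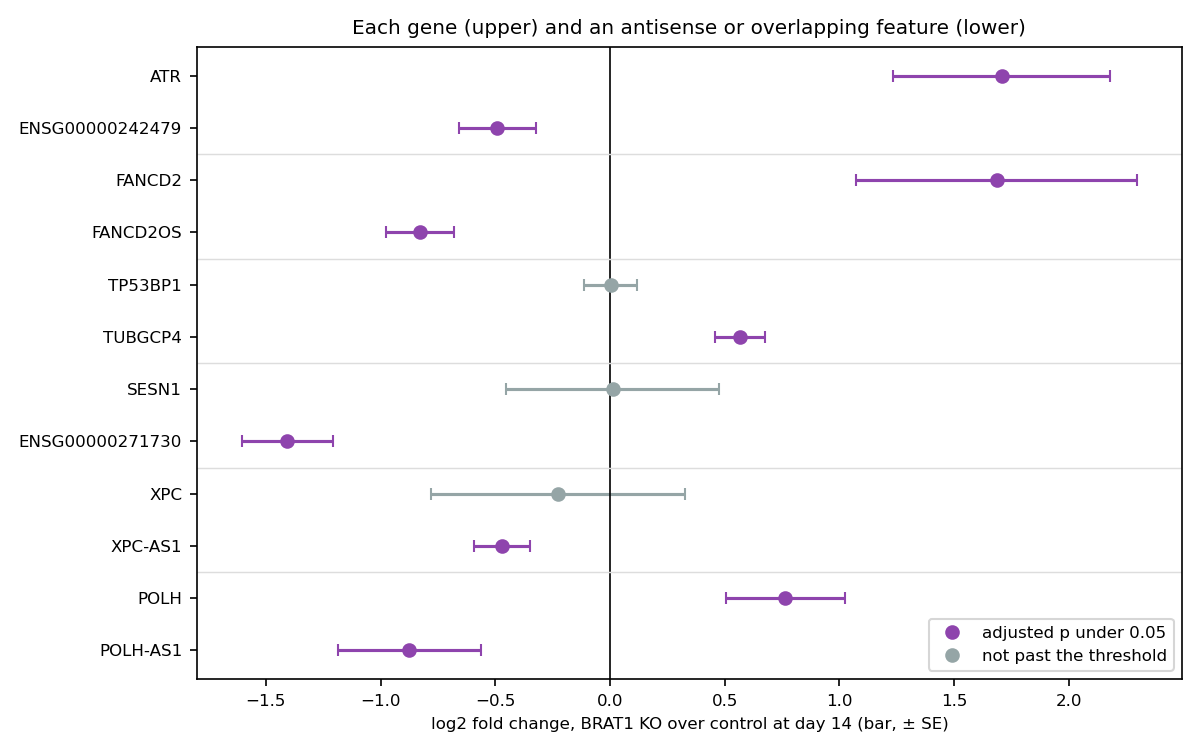
Log2 fold change of BRAT1 KO over control at day 14, with bars of ± SE, for each damage response gene (upper of each pair) and an antisense or overlapping feature (lower). ATR, FANCD2 and POLH lie above 0 and their partners below it, while TP53BP1, SESN1 and XPC lie near 0 with bars that reach it.

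The division of counts within a pair is not changed by how a library is scaled. FANCD2 held 7.39 ± 4.59% of the counts of FANCD2 and FANCD2OS in BRAT1 KO and 1.31 ± 1.09% in control (SD, n = 6 each). It was higher in 6 of 6 BRAT1 KO libraries than in every control library, and a two-sided exact permutation test gave p = 0.00217, or 0.00433 adjusted over the 4 pairs. TP53BP1 held 35.8 ± 1.72% of the counts of TP53BP1 and TUBGCP4 in BRAT1 KO and 45.0 ± 2.39% in control, again with no overlap (exact permutation p = 0.00217, adjusted 0.00433).

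SESN1 held 14.4 ± 8.03% of its pair in BRAT1 KO and 6.44 ± 2.43% in control (exact permutation p = 0.0519, adjusted 0.0693), with 2 of 6 BRAT1 KO libraries inside the control range. XPC held 2.01 ± 1.22% in BRAT1 KO and 1.62 ± 1.38% in control (exact permutation p = 0.606 raw and adjusted). The pairs did not move in 1 direction: FANCD2 gained share in BRAT1 KO and TP53BP1 lost it.

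**Figure D4:**
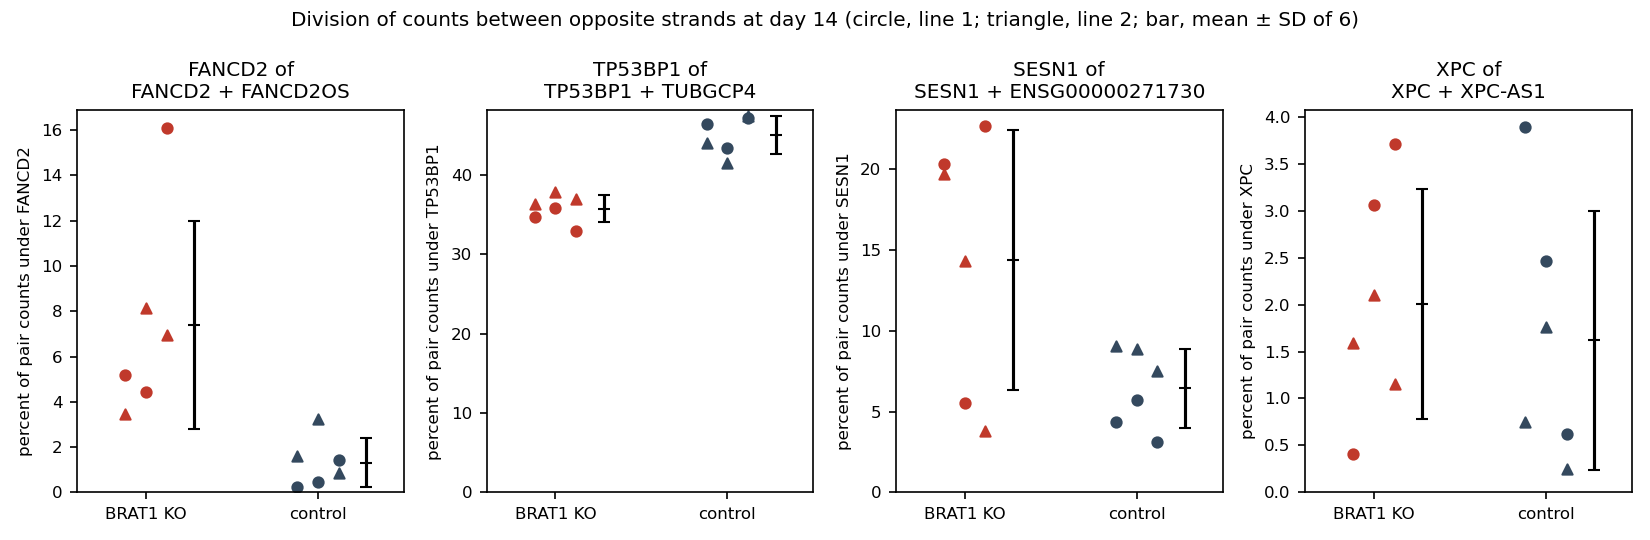
Percent of the counts of a pair that stand under the damage response gene, in each day 14 library, BRAT1 KO left of control, with the mean ± SD of 6 libraries beside the points. The genotypes do not overlap for FANCD2 and TP53BP1 and do overlap for SESN1 and XPC.

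Other measures moved with genotype at day 14. A set of 504 other pairs was picked from these same counts. Over all 24 libraries, the opposite feature had at least 1000 counts and at least 10 times those of the coding gene. A low percent was therefore set by the choice, and only its difference between groups is read here. Over these pairs, the counts under coding genes came to 2.78 ± 0.695% of those under the features opposite them in BRAT1 KO and 1.88 ± 0.266% in control (SD, n = 6 each). Of the coding genes of those pairs, 24 were higher and 7 lower in BRAT1 KO among 241 tested (median log2 0.21), and of the opposite features 38 were higher and 177 lower among 497 (median log2 -0.32). With that percent as a covariate, 3 of the 10 features stayed past the threshold, and ATR, FANCD2, XPC-AS1 and POLH did not. Over all features 1439 of 11408 were called in that fit, against 2474 without the covariate. The log2 fold change went from 1.71 to 1.56 for ATR and from 0.76 to 0.75 for POLH. It went from 1.685 to 1.095 for FANCD2 and from -0.47 to -0.33 for XPC-AS1. The covariate itself differed between genotypes, so this fit cannot tell the 2 apart.

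Markers of cell types also moved. Summed CPM of 8 neural progenitor markers was 583, 721 and 1120 (lowest, median and highest) in BRAT1 KO and 272, 401 and 485 in control. Of 7 tested, 4 were higher in BRAT1 KO, including SIX3 (log2 3.34, edgeR adjusted p = 1.42e-06) and NES (1.30, adjusted p = 1.69e-05), and none lower.

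The 7 neuron markers summed to 87.8, 110 and 228 CPM in BRAT1 KO and 33.2, 57.1 and 81.0 CPM in control, and 3 of 6 tested were higher in BRAT1 KO. The 6 neural crest markers summed to 12.6, 34.1 and 43.2 CPM in BRAT1 KO and 78.5, 102 and 118 CPM in control, with TFAP2B at log2 -4.44 (edgeR adjusted p = 1.19e-05) and SOX10 at -2.85 (adjusted p = 0.000566). These were 2 of 4 tested; TFAP2A at 0.23 and PAX3 at -0.19 did not pass. None of these 3 lists had a marker at 0 in a whole group at day 14. None of 4 pluripotency markers tested passed (median log2 0.15), and none of 4 mesenchyme markers did (median -0.27). Under the names opposite mesenchyme markers, though, 4 of 4 features tested were lower in BRAT1 KO (median -1.37): ACTA2-AS1 (log2 -2.13) and FAS (-1.71) at ACTA2, PCSK7 at TAGLN (-1.02) and THY1-AS1 at THY1 (-0.97). Opposite neural crest markers 1 of 3 was lower, FOXD3-AS1 (-5.72), while TFAP2A-AS2 (0.42) and TFAP2A-AS1 (0.47) did not pass (median 0.42). Opposite neural progenitor markers none of 4 passed (median -0.30). Against day 0, in control, 6 of 7 neural progenitor markers were higher at day 14, while of 5 pluripotency markers 3 were lower, POU5F1 at log2 -4.30 (edgeR adjusted p = 5.41e-07) among them, and 1 was higher. Summed CPM of the 8 pluripotency markers did not separate the days. In control it was 46.2, 67.5 and 122 at day 0 and 52, 78.5 and 103 at day 14. In BRAT1 KO it was 33, 75.8 and 155 at day 0 and 50.5, 67.9 and 123 at day 14. The 20 cell cycle genes summed to 426, 589 and 676 CPM in BRAT1 KO and 446, 540 and 613 CPM in control at day 14, and none of the 14 tested passed. Under the names opposite cell cycle genes, though, 5 of 7 features tested were lower in BRAT1 KO and none higher (median -0.47). Among them were TYMSOS (log2 -1.06) and ENOSF1 (-0.47) at TYMS, ENSG00000261266 at PLK1 (-0.81) and EXOSC9 at CCNA2 (-0.64). The part of strand, cell type or cycling in the results above was not tested, and in bulk RNA fewer cells of a type and less RNA per cell cannot be told apart.

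The other genes of these pathways were read as lists, whose shares of calls stand beside 21.7% over all features. Of 9 genes of ATR-CHK1 signalling tested at day 14, 1 was higher in BRAT1 KO and none lower, with a median log2 fold change of -0.09. It was CLSPN, the Claspin adaptor that CHK1 activation needs (log2 1.22, SE 0.43, edgeR adjusted p = 0.0398).

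Of 11 tested genes of the Fanconi anaemia and crosslink repair list, 2 were higher and 1 lower (median 0.25). FANCB, a core complex subunit, was at log2 3.43 (SE 0.45, edgeR adjusted p = 8.18e-05), FAN1, a nuclease, at 0.48 (adjusted p = 0.00971) and FANCA, another core subunit, at -0.67 (adjusted p = 0.000575). Among 14 genes of break sensing and end joining, 2 were higher and 1 lower (median 0.05): RNF168, a ubiquitin ligase at breaks upstream of TP53BP1, at 0.73 (adjusted p = 0.0140), RIF1, an effector of TP53BP1, at 1.44 (adjusted p = 0.0296), and DCLRE1C, the Artemis nuclease, at -0.47 (adjusted p = 0.0167).

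In nucleotide excision repair 1 of 14 was higher and none lower (median 0.33), namely LIG3, a ligase, at 0.59 (edgeR adjusted p = 0.0237). In translesion synthesis and damage tolerance 1 of 10 was higher and none lower (median -0.18), namely SHPRH, a ubiquitin ligase for PCNA, at 0.86 (edgeR adjusted p = 0.0424). Of 9 p53 targets tested, none was higher and 1 was lower (median 0.10): FAS, a death receptor, at -1.71 (SE 0.21, edgeR adjusted p = 6.28e-07). FAS shares 380 exonic bases with ACTA2, a mesenchyme marker on its other strand, so counts under FAS may hold reads of either. The same limit holds for other genes named in these lists, such as FANCA with ZNF276 (2302 bases) and LIG3 with RFFL (3754). The shares of calls ran from 1 of 14 to 3 of 11, and those of the Fanconi and break sensing lists lie near that of all features.

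The features opposite the genes of these lists were read as well, a reading added after the data were seen. Over the features opposite the 504 pairs' coding genes, 177 of 497 were lower and 38 higher, and most of the shares below lie near or under that. Those 497 were non-coding and picked for high counts. The features below are any that share at least 100 exonic bases, coding genes and low counts included, so the 2 sets are not matched. Opposite nucleotide excision repair genes, 3 of 6 tested were lower in BRAT1 KO and none higher, among them ENSG00000269534 at LIG1 (log2 -0.60) and KLC3 at ERCC2 (-0.45). Opposite genes of the Fanconi list 2 of 7 were lower, POLG at FANCI (-0.57) and MTMR10 at FAN1 (-0.43). Opposite break sensing genes 2 of 8 were lower, C11orf65 at ATM (-0.94) and NEB at RIF1 (-0.63), and opposite ATR-CHK1 genes none of 4 passed. Opposite translesion genes 1 of 9 was lower, CERT1 at POLK (-0.42), and opposite p53 targets 1 of 4 was higher and 1 lower. Opposite cell cycle genes 5 of 7 were lower and none higher.

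At day 0, BRAT1 KO and control were not distinguished at any of these features. The filter on low counts left 5 of the 10 (ATR, FANCD2, SESN1, XPC and POLH did not pass it), and 0 of 5 were called, against 0% of 4832 features. In edgeR 0 of the 5 had an unadjusted p under 0.05, and DESeq2 called 0 of 10 with 0 at an unadjusted p under 0.05. FANCD2OS had 48.2, 147 and 215 CPM in BRAT1 KO and 85.0, 155 and 196 CPM in control. ENSG00000271730 had 58.2, 78.7 and 281 CPM in BRAT1 KO and 29.7, 97.9 and 174 CPM in control. The libraries of a group spread further at day 0 than at day 14 for both, with the genotypes overlapping throughout.

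Several of the features differed between days in both genotypes. Features detected numbered 9299 to 15116 per library at day 0 and 20769 to 25247 at day 14. Differentiation and the number of features detected cannot be told apart here. Day 14 was set against day 0 in 1 fit of 24 libraries, in which 9 of the 10 were tested and FANCD2 was not. In BRAT1 KO 7 of 9 were called (5 higher at day 14, 2 lower), against 46.3% of 10971 features. In control 5 of 9 were called (4 higher, 1 lower), against 42.8%. The median of all features was 0.65 on the log2 scale in BRAT1 KO and 0.60 in control, and under RLE scaling it was 1.04 in BRAT1 KO and 0.83 in control, so a fold change below these is small relative to the rest.

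TUBGCP4 was at log2 1.67 (SE 0.29, edgeR adjusted p = 2.27e-05) in BRAT1 KO and 1.51 (SE 0.29, adjusted p = 9.95e-05) in control. In CPM it had a median of 1090 at day 14 and 185 at day 0 in BRAT1 KO, and 740 at day 14 and 178 at day 0 in control. TP53BP1 was at 0.91 (adjusted p = 0.000680) in BRAT1 KO and 0.54 (adjusted p = 0.0372) in control, the second below the median of all features. POLH was at 2.09 (adjusted p = 0.0355) in BRAT1 KO and 2.86 (adjusted p = 0.00911) in control. Its median was 31.6 CPM at day 14 and 5.39 CPM at day 0 in BRAT1 KO, and 18.4 CPM at day 14 and 0.933 CPM at day 0 in control.

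SESN1 was almost without counts in stem cells. It had 137 counts over the 6 day 14 libraries and 2 over the 6 day 0 libraries of BRAT1 KO, a CPM ratio of 40.3 with an exact 95% interval of 10.9 to 336 that covers counting error only, not spread between libraries. The edgeR log2 fold change was 4.56 (SE 0.99, adjusted p = 0.000356). In control it had 140 counts at day 14 and 4 at day 0 (log2 3.59, SE 0.92, edgeR adjusted p = 0.00207). ATR was at log2 3.88 (SE 0.82, edgeR adjusted p = 0.000256) in BRAT1 KO, with 199 counts at day 14 and 5 at day 0, and at 0.24 (SE 0.71, adjusted p = 0.804) in control, with 64 counts at day 14 and 19 at day 0.

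FANCD2OS and ENSG00000271730 went the other way. FANCD2OS was at -1.58 (SE 0.29, edgeR adjusted p = 3.88e-05) in BRAT1 KO and -0.83 (SE 0.28, adjusted p = 0.0171) in control. The control value lost its call under RLE scaling and in DESeq2. ENSG00000271730 was at -1.89 (SE 0.37, edgeR adjusted p = 0.000121) in BRAT1 KO and -0.30 (SE 0.36, adjusted p = 0.524) in control. XPC and XPC-AS1 did not pass in either genotype.

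Other damage genes were read by list in control cells, where 42.8% of all features were called, 3115 higher at day 14 and 1584 lower. In ATR-CHK1 signalling 4 of 9 tested were lower at day 14 and none higher, with RAD17, a clamp loader, at log2 -2.17 (edgeR adjusted p = 3.18e-06) and RAD9A, a clamp subunit, at -0.82 (adjusted p = 0.0264). In break sensing and end joining 3 of 15 were lower and none higher, with ABRAXAS1, a BRCA1 complex scaffold, at -3.57 (adjusted p = 2.31e-09) and CHEK2, a checkpoint kinase, at -1.15 (adjusted p = 0.00257). In nucleotide excision repair 3 of 12 were lower and none higher, with ERCC1, a nuclease subunit, at -4.12 (adjusted p = 3.70e-19) and ERCC2, a helicase, at -3.72 (adjusted p = 2.82e-06). The Fanconi list had 3 of 11 higher and 1 lower, with BRIP1, a helicase, at 5.58 (adjusted p = 0.000746) and FANCL, a ubiquitin ligase, at -1.72 (adjusted p = 7.11e-06). In translesion synthesis 2 of 8 were higher and 1 lower, with SHPRH at 4.28 (adjusted p = 0.000324) and PRIMPOL, a primase, at -3.04 (adjusted p = 1.22e-08). Of 7 p53 targets 2 were higher and none lower, TP53INP1 at 2.80 (adjusted p = 0.0279) and TP53I3 at 2.34 (adjusted p = 0.0413), and of 13 cell cycle genes 1 was lower, CCNA2, a cyclin, at -3.28 (adjusted p = 7.74e-08). In BRAT1 KO, where 46.3% of all features were called, ATR-CHK1 signalling had 2 higher and 3 lower of 9. Break sensing had 2 higher and 5 lower of 15, and nucleotide excision repair 4 higher and 3 lower of 12. The Fanconi list had 6 higher and 1 lower of 11, and translesion synthesis 2 higher and 2 lower of 8. Of 7 p53 targets 3 were higher and none lower, and of 13 cell cycle genes 1 was lower and none higher. The difference between genotypes in these counts was not tested, and the interaction called none of these genes. Several named genes share exonic bases with a feature on the other strand, such as ERCC1 with POLR1G (1593), ABRAXAS1 with MRPS18C (1956) and FANCL with VRK2 (452). Counts under such a name may hold reads of either.

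The interaction of genotype and day, which tests whether the day effect differs between genotypes, called 0 of 9 in edgeR, against 1.47% of 10971 features. At an unadjusted p under 0.05 there were 2 of 9: ATR (log2 3.63, SE 1.08, adjusted p = 0.0821) and ENSG00000271730 (-1.58, SE 0.51, adjusted p = 0.115). DESeq2 called 1 of 10, ATR, against 545 of 16367 features. A difference between genotypes in the day effect of these features was therefore not shown in edgeR.

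Lines of 1 genotype served as a background. These tests set 3 libraries against 3, fewer than the 6 against 6 of the genotype test, so they detect less. BRAT1 KO line 2 against line 1 at day 14 called 0 of 10, against 1.23% of 15000 features, and control line 2 against line 1 called 0 of 10, against 0.107%. In both, edgeR and DESeq2 had 0 of the features at an unadjusted p under 0.05. The largest edgeR difference between KO lines among the 10 was SESN1 at log2 -0.59 (SE 0.65), and among control lines XPC at -1.39 (SE 0.78). FANCD2 differed between control lines by 1.33 (SE 0.97), beside 1.69 (SE 0.61) between genotypes at day 14.

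Per kilobase of exon, the features opposite damage response genes carried more counts than those genes. In mean CPM per exonic kb at day 14, ENSG00000271730 had 65.9 in BRAT1 KO and 175 in control, and SESN1 had 1.46 in BRAT1 KO and 1.45 in control. XPC-AS1 had 63.6 in BRAT1 KO and 87.4 in control, and XPC had 1.05 in BRAT1 KO and 1.19 in control. FANCD2OS had 36.5 in BRAT1 KO and 64.7 in control, and FANCD2 had 0.662 in BRAT1 KO and 0.200 in control. TP53BP1 was closer to its opposite feature than the others, with 47.1 in BRAT1 KO and 46.6 in control, beside 98.6 in BRAT1 KO and 66.0 in control for TUBGCP4.

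For each called feature, the 3 features whose log2 CPM was most alike over the 12 day 14 libraries were taken by Pearson's r, as a description in which all points share genotype. ATR was most like XPO1 (0.933), RDH13 (0.926) and ZNF195 (0.891). FANCD2OS was most like MYCNOS (0.963), ZBTB1 (0.956) and FAS (0.947), and TUBGCP4 was most like ENSG00000291159 (0.986), GRM3-AS1 (0.983) and DLX1 (0.976). ENSG00000271730 was most like TNS2-AS1 (0.983), MRPS9-AS1 (0.979) and ENSG00000257553 (0.976). XPC-AS1 was most like ENSG00000237768 (0.973), DLD (0.967) and CCND2-AS1 (0.964), while FANCD2 and POLH reached 0.923 with NKAIN3 and 0.913 with ENSG00000284600.

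The calls at day 14 differed in how they held under other settings. ENSG00000271730 was called in 26 of 26 alternatives, FANCD2OS in 25, TUBGCP4 and XPC-AS1 in 24, ATR in 21, POLH in 11 and FANCD2 in 4 of 24. None of the 7 changed sign in any alternative.

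**Figure D5:**
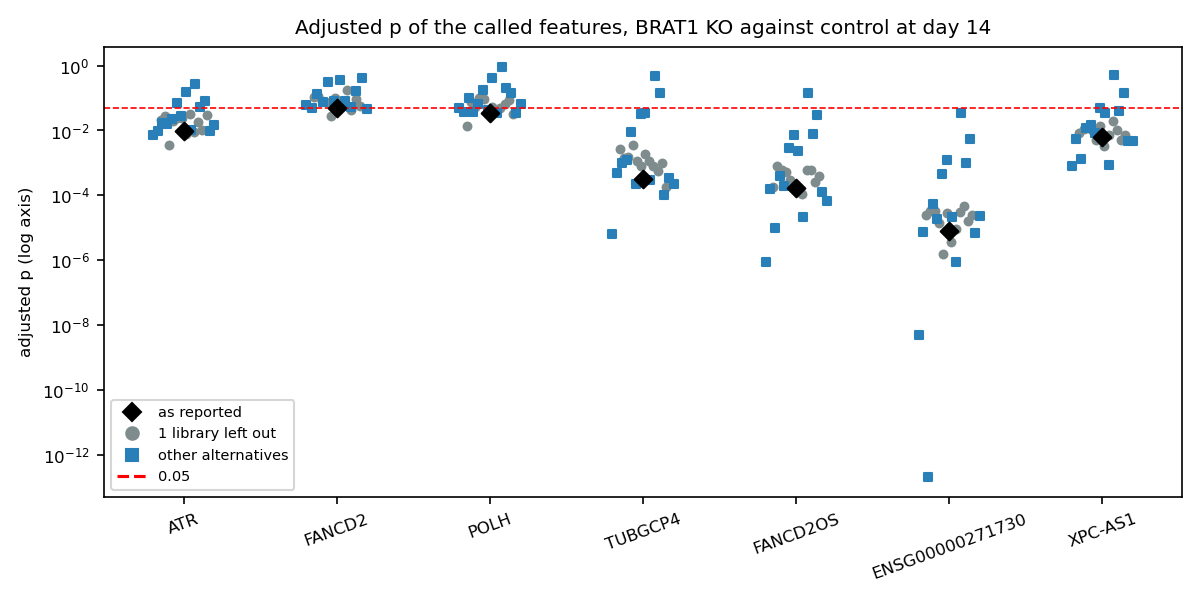
Adjusted p (log axis) of the 7 called features for BRAT1 KO against control at day 14, as reported (diamond), with 1 library left out (circle) and under the other alternatives (square), with 0.05 as a dashed line. Points of FANCD2 and POLH lie on both sides of the line, and all points of ENSG00000271730 lie below it.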

How the data were processed

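The deposited values were raw counts of reads per feature, 1 table per library, and whole numbers. Per the submitters' processing notes, the build was GRCh38 and the tools named are STAR 2.7.9a, bcl2fastq 2.20.0, R 3.5.1, DESeq2 1.34.0 and Subread 2.0.1 with featureCounts. For the counting, annotation release and strand setting: not given in the sources used here. Names were matched to GENCODE 29 (57015 of 61248 features, 90.11% of counts).

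Counts were tested with edgeR 4.0.16 (quasi-likelihood F test, TMM, filterByExpr, robust) under R 4.3.3, with Benjamini-Hochberg adjustment over all features tested and 0.05 as the threshold. Genotypes were compared in the 12 libraries of a day, days and the interaction in all 24. The share of a pair's counts used exact permutation tests. The tests were checked on simulated data. With 1 spread for all features, the day 14 edgeR test recovered 24% of 2-fold and 99% of 4-fold changes, with 7 false calls. A feature that did not pass may therefore still hold a 2-fold change. The members, gene lists and tests were chosen with earlier results of these data known. Named list genes are those past the threshold, up to 4 by smallest adjusted p; features outside this rule are said to be so. The alternatives included RLE scaling, DESeq2 1.42.0, a fit without the filter, a replicate block, other groupings of lines and libraries, and the strand covariate; leaving out features above 1% of counts and thinning to 2228736 counts were added after seeing the data. Of the called features opposite nucleotide excision repair genes, 1 is not reported here.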

Additional observations from a re-analysis of the deposited data

Results flagged for a closer look

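Among 40 groups of 6 libraries examined for a library far from the others, 2 held one, and chance flags about 1 in 20 groups. Both were in replicate B of BRAT1 KO line 1 at day 0. SESN1 had 1.15 CPM there, from 2 counts, and 0 in the other 5 libraries. ENSG00000271730, on the other strand, had 280.5 CPM there, from 489 counts. Its other 5 libraries had 58.2 to 122 CPM.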

How the results depend on the processing

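The 7 features called between BRAT1 KO and control at day 14 became 4 without BRAT1 KO line 2 and 4 without control line 2. They became 1 with all 24 libraries in 1 fit, 3 with counts summed per line and 3 with the strand percent as a covariate. The share called over all features fell as well, from 2474 of 11408. In the same order it was 2303 of 13420, 1266 of 14157, 241 of 10971, 1664 of 19582 and 1439 of 11408. Leaving out 1 library gave 5 to 6, with 2113 to 2551 called of 11836 to 12262 tested over all features. For day 14 against day 0 in control, 5 called became 3 without control line 1 and 1 without control line 2. All features went from 4699 of 10971 to 3476 of 13498 without control line 1 and 2926 of 14085 without control line 2. The interaction called 1 feature in DESeq2 (ATR), against 545 of 16367 over all features. It called 1 with no filter on low counts (ENSG00000271730), against 792 of 41847. The SESN1 share difference was 6.29 to 10.1 percentage points when 1 library was left out, past the threshold without BRAT1 KO replicate B of line 1 or replicate C of line 2. The XPC share difference changed sign to -0.000970 without BRAT1 KO line 1 and -0.32 without control line 2. The cause was not tested. No called result of the 10 features changed sign in any alternative (19 results), and 24 of 43 uncalled ones did in at least 1, and no direction is given for those. With the replicate letter as a replicate block, 6 features were called at day 14 (FANCD2 was lost), 7 for day in BRAT1 KO, 5 for day in control and 0 elsewhere. Over all features, genotype at day 14 then had 2256 of 11408, day in BRAT1 KO 5279 of 10971 and day in control 4877 of 10971. Same-letter libraries correlated at -0.153 to 0.0822 at day 14 and 0.0606 to 0.231 at day 0 in their deviations. At day 0 all 18 same-letter pairs were positive, with a mean of 0.123, against a mean of -0.0614 for different letters. Not every pair was over 0.1, and the main tests did not take the letters to pair the libraries. A shared effect of the letter at day 0 was not excluded by this. FANCD2, SESN1, XPC and ATR had few counts, which limits what a difference there can show.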
